A study of Mus musculus with 56 samples.

Results

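The interleukin-1 genes encode the agonists IL-1α (Il1a) and IL-1β (Il1b) and their natural receptor antagonist (Il1rn), and the peaks that carried these 3 gene names, or the name Gm14047 of a noncoding transcript next to Il1b, were followed across 9 antibodies. The members were chosen by the gene name given to each peak. They comprised 698 of 1610519 peaks in 56 lists: 224 named Il1a, 215 named Il1b, 184 named Il1rn and 75 named Gm14047. All cells were bone marrow-derived macrophages (BMDMs) from wild-type C57BL/6 mice of 8 to 12 weeks, differentiated for 6 days in L929 cell supernatant as the source of macrophage colony-stimulating factor, and chromatin immunoprecipitation sequencing (ChIP-seq) was done with 1 list of peaks per sample. In the first experiment, 2 untreated and 2 IL-4-treated samples (20 ng/ml, 1 hr) were collected for each of RNAPII-pS5, RNAPII-pS2, H3K27Ac, p300, PU.1, HDAC1, HDAC2 and HDAC3, or 32 samples. In the second, 2 samples each of untreated cells (ctrl/ctrl), cells given IL-4 for 24 hr (IL-4 PT/ctrl), cells given LPS at 100 ng/ml for 1 hr (ctrl/LPS) and cells given both in that order (IL-4 PT/LPS) were collected for RNAPII-pS5, RNAPII-pS2 and p65, or 24 samples. The study calls its ChIP-seq replicates independent and biological without saying whether they were separate animals, and p-values measure the spread between these samples only.

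IL-1α and IL-1β bind the same receptor (Il1r1), which recruits its accessory chain (Il1rap) and signals through Myd88 and the Irak kinases, whereas the antagonist occupies the receptor without signalling. LPS is a bacterial product that activates NF-kB, of which p65 is a subunit, and macrophages transcribe the agonists and the antagonist soon after they meet it. IL-4 signals through the transcription factor STAT6 and drives the alternative form of macrophage polarization. Serine 5-phosphorylated RNA polymerase II (RNAPII-pS5) marks early transcription, the serine 2-phosphorylated form (RNAPII-pS2) marks elongation and increases toward the ends of genes, H3K27Ac marks active promoters and enhancers, p300 is the coactivator that deposits it, PU.1 is the factor that defines macrophage enhancers, and HDAC1, HDAC2 and HDAC3 remove acetyl groups.

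The members occupy separate stretches of chromosome 2 (mm10). Il1rn (chr2:24336853-24351494, plus strand) lies 104.95 Mb from Il1a (chr2:129299610-129309972, minus strand), so that it is not physically part of the Il1a and Il1b locus. Il1b (chr2:129364570-129371139, minus strand) and Il1a point the same way, and their starts are 61.17 kb apart. The peaks named Il1a, Il1b or Gm14047 spanned 145.25 kb, and those named Il1rn spanned 44.43 kb. Sites were named by the nearest start of these genes and the distance of the midpoint in kb, negative upstream, and the midpoint of a site differs slightly between antibodies. Gm14047 proved a poor guide to a transcript: 55 of its 75 peaks were intergenic and 8 overlapped the annotated noncoding gene, which is listed as Il1bos (chr2:129369897-129375748, plus strand), whereas 15 overlapped Il1b. Most unstimulated Gm14047 peaks marked 1 site, Il1b +10.8 kb, which lies 4.2 kb past the 3′ end of Il1b and 50.4 kb upstream of the start of Il1a. Single sites are therefore reported beside gene names below.

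Sequences of the sites on which the results turn are given as the central 300 bases of each site, from the plus strand of mm10, with matches to 5 short motifs in capitals (both strands searched). The motifs were the 10-letter palindromic STAT core with 4 free letters, the NF-kB core with 4 free letters, GAGGAAGT for PU.1, TGANTCA for AP-1 and TTGCNNAA for C/EBP. The first 4 windows are sites where IL-4 raised p300 (another such site, Il1b −18.9 kb, is not shown and held no STAT letters), the next holds NF-kB letters, and the last was lower for p65 after IL-4 pretreatment.
Il1b +10.8 kb (chr2:129360186-129360485): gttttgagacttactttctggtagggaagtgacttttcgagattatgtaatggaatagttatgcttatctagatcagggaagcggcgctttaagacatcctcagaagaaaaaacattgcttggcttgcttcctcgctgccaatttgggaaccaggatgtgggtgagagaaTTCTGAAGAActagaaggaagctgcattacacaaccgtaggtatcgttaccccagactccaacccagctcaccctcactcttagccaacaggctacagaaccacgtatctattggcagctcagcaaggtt
Il1a −10.2 kb (chr2:129320047-129320346): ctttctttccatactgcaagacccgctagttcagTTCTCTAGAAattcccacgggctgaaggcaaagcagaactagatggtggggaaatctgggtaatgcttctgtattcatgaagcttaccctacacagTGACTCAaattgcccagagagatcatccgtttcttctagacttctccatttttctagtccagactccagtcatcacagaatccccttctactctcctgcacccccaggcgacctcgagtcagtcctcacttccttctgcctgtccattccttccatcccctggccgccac
Il1b −13.7 kb (chr2:129384681-129384980): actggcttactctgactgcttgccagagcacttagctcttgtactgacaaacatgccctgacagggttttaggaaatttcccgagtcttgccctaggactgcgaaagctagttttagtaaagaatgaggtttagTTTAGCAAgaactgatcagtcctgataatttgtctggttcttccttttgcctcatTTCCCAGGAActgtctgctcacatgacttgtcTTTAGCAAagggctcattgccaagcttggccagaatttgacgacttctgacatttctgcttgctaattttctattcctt
Il1rn −1.4 kb (chr2:24335333-24335632): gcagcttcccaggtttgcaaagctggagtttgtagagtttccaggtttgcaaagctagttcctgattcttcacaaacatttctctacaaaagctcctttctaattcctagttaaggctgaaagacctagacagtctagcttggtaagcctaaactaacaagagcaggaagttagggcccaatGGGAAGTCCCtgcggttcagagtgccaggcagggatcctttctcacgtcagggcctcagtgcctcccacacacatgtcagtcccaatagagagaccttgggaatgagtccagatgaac
Il1a −20.8 kb (chr2:129330611-129330910): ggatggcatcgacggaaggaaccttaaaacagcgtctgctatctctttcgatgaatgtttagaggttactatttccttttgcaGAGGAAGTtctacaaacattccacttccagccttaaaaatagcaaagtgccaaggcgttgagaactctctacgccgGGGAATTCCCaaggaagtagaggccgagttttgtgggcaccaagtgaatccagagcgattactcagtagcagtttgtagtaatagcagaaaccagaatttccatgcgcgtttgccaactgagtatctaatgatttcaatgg
Il1b −9.6 kb (chr2:129380598-129380897): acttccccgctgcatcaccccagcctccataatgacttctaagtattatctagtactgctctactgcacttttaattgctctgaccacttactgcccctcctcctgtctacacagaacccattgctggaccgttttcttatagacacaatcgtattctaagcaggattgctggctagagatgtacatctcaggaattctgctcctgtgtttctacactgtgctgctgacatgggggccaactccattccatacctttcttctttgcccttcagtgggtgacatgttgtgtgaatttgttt
The first 3 windows each held 1 match to the STAT letters, and Il1rn −1.4 kb held none. STAT letters were present in 13.14% of the central windows of all p300 sites and NF-kB letters in 15.47%. The same letters were found in 11.48% and 24.53% of p65 windows. Il1a −20.8 kb held the palindrome GGGAATTCCC, Il1rn −1.4 kb held GGGAAGTCCC, and Il1b −9.6 kb held no match to any of the 5 motifs. A match to these letters is a description of the sequence and was not tested as a binding site.

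Il1rn has further annotated starts about 8.4 kb inside the gene, from which the secreted form of the antagonist is transcribed. RNAPII, p65, p300 and PU.1 peaks met at these starts, so the 250 bases before the first of them are shown from the RefSeq promoter table (GRCm38, plus strand).
Il1rn internal promoter (chr2:24345041-24345290): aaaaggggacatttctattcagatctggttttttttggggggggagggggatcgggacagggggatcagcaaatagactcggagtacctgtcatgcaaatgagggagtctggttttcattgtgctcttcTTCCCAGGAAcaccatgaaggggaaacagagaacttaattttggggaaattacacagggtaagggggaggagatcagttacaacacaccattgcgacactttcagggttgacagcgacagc
The capitals mark the STAT letters TTCCCAGGAA, which were also found at Il1b −13.7 kb. Among the 250-base windows of all promoters, 5.85% held STAT letters and 17.63% held NF-kB letters.

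The deposited score of a peak was of the −log10 type that MACS2 gives for a q-value, except for H3K27Ac, where it was HOMER's normalized tag signal. The value of a gene was the highest score among its peaks and that of a site the highest score of any peak in it. Changes are on the log2 scale with every sample centred at the median of its features found in all samples and the lowest score of the antibody in place of a missing peak, ± SE, for 2 samples against 2. Tests were limma fits over all genes or sites with Benjamini-Hochberg adjustment, and calls were made at an adjusted p of at most 0.05. For any 1 value, an exact two-sided permutation test of 2 against 2 cannot go below 0.333, the value for groups that do not overlap. Groups that do not overlap are described below by their scores before centring. The share of all genes or sites with such groups was not counted. Centring removed a shift of 1.27 (log2) for p65 between ctrl/ctrl and ctrl/LPS, of 0.78 for p300, 0.35 for PU.1, −0.33 for HDAC1 and 0.32 for HDAC3 after IL-4, and of 0.31 for p65 between ctrl/LPS and IL-4 PT/LPS. Changes are reported relative to these shifts. In bulk samples, binding in more cells cannot be told apart from stronger binding per cell.

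The lists held between 8440 (HDAC3) and 71027 (PU.1) peaks, and read depth is unknown. Untreated p300 replicate 1 stood apart with 44787 peaks, and p300 changes at the member sites called are given with and without it. Other p300 values of single genes and sites, among them those of the pathway genes, are given with it only. In the 1 hr experiment, the labels of the 4 RNAPII-pS2 lists and the names of the peaks in them gave opposite treatments, so no direction of IL-4 was read from them. The label of HDAC3 gives the same antibody number (ab4729) as that of H3K27Ac. RNAPII-pS5 peaks named 7 of 8 macrophage markers in all 12 lists (Spi1, which encodes PU.1, in none), whereas Cd3e, Cd3g, Ly6g, Col1a1 and Pdgfra were named in none. The B and T cell markers Ms4a1 and Lck were named in 12 of 12 lists, and the neutrophil marker S100a8 in 9, and their part in the results was not tested.

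IL-4 for 1 hr was followed by higher signal at few sites of the interleukin-1 genes, most of them intergenic. The intergenic site Il1b +10.8 kb gained H3K27Ac, p300 and HDAC3, and Il1a −10.2 kb gained H3K27Ac and p300. The promoter of Il1b and the upstream Il1b sites at −2.3 and −9.6 kb did not pass the test for any antibody. By gene name, 1 of 4 members passed for H3K27Ac (against 38.3% of all genes tested), 1 for p300 (18.9%) and 1 for HDAC3 (1.81%), each time Gm14047 and each time higher. Scored over the gene span alone in place of all peaks that carry the name, Gm14047 instead fell for H3K27Ac (−0.46 ± 0.11, adjusted p = 0.0444 by limma). Its change over the span was −0.36 for p300 (adjusted p = 0.321) and −0.025 for HDAC3 (adjusted p = 0.98), which did not pass. The site Il1b +10.8 kb lies outside that span.

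At Il1b +10.8 kb, H3K27Ac signal was 24.3 and 20.6 in the 2 untreated samples and 62.6 and 60.8 after IL-4. The IL-4-treated samples were 2.75 times as high on average and did not overlap the untreated ones (log2 change of 1.52 ± 0.12, adjusted p = 0.00233 by limma). This call held when any 1 library was left out. p300 scores at the site were 57.85 and 165.63 without IL-4 and 306.70 and 304.24 with it (0.97 ± 0.22, adjusted p = 0.00114). Leaving out untreated replicate 1 (0.97, adjusted p = 3.15e-05) or 2 kept the p300 call, but leaving out IL-4 replicate 1 (adjusted p = 0.385) or IL-4 replicate 2 (adjusted p = 0.336) lost it. HDAC3 scores were 26.82 and 26.52 without IL-4 and 80.73 and 65.72 with it (1.16 ± 0.26, adjusted p = 0.0156). The HDAC3 call was lost without untreated replicate 1 (adjusted p = 0.0627), IL-4 replicate 1 (adjusted p = 0.119) or IL-4 replicate 2 (adjusted p = 0.0963), and the change stayed between 0.89 and 1.40. It was also lost with a replicate block, without centring and where a peak had to cover 50% of the site, each of which left 0 HDAC3 sites.

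Other antibodies at Il1b +10.8 kb did not pass the test. PU.1 scores were 54.31 and 58.56 without IL-4 and 137.45 and 133.72 with it, groups that do not overlap, but the change (0.93 ± 0.26) had an adjusted p of 0.339 (0.0735% of all PU.1 sites changed). RNAPII-pS5 scores were 10.58 and 10.86 without and 18.76 and 19.91 with IL-4 (0.96 ± 0.36, adjusted p = 0.158). HDAC1 scores overlapped between the groups (24.94 and 13.25 against 23.82 and 19.95), as did those of HDAC2 (32.60 and 22.58 against 37.96 and 28.65). RNAPII-pS2 peaks were present in both libraries labelled untreated, at 8.16 and 6.38, and in neither library labelled IL-4.

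**Figure D1:**
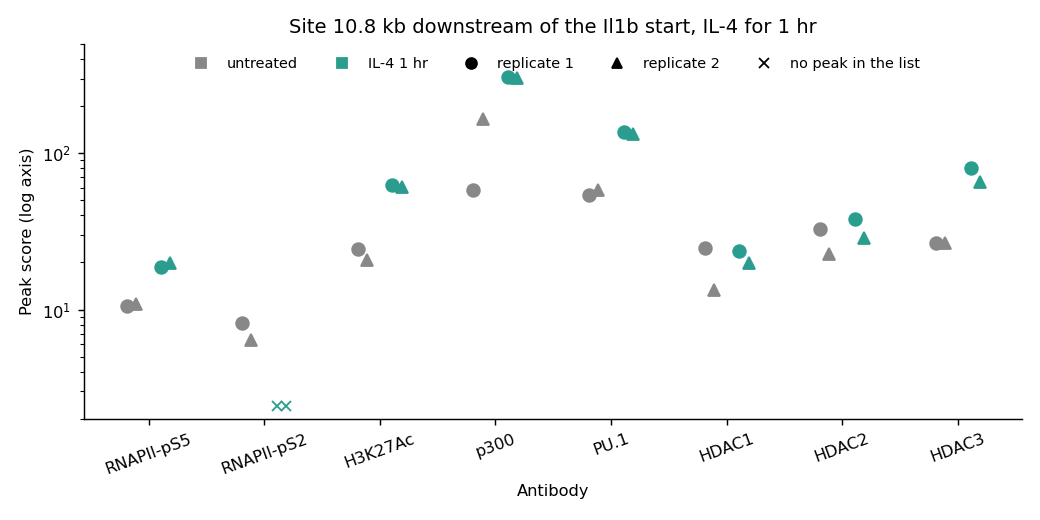
Peak score (log axis; −log10 type, or normalized tags for H3K27Ac) at the site 10.8 kb downstream of the Il1b start by antibody, in untreated (grey) and 1 hr IL-4-treated (green) samples, with circles for replicate 1, triangles for replicate 2 and crosses for lists without a peak. H3K27Ac, p300, PU.1, HDAC3 and RNAPII-pS5 points lie higher after IL-4 in both samples, whereas HDAC1 and HDAC2 points overlap, and scores of different antibodies are not comparable in height.

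The site Il1a −10.2 kb moved in the same way. H3K27Ac regions were called there in neither untreated sample and in both IL-4-treated samples, with signals of 18.9 and 18.7 (1.10 ± 0.11 against the lowest signal in the lists, adjusted p = 0.00374), and the call held without any 1 library. p300 scores were 36.12 and 104.44 without IL-4 and 202.85 and 173.93 with it (0.94 ± 0.21, adjusted p = 0.00122), and this call held without untreated replicate 1 (0.93, adjusted p = 0.00114) and was lost without IL-4 replicate 1 (adjusted p = 0.180). PU.1 scores were 53.01 and 54.73 without and 136.84 and 132.32 with IL-4, with an adjusted p of 0.284. HDAC3 scores were 45.57 and 39.24 without and 80.93 and 84.28 with IL-4 (adjusted p = 0.171). RNAPII-pS5 scores were 5.41 and 9.93 without and 16.82 and 16.80 with IL-4 (adjusted p = 0.170). For PU.1, HDAC3 and RNAPII-pS5, the groups did not overlap at this site although no change passed the test.

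Sites near Il1rn and the Il1a promoter gave smaller values. At Il1rn −1.4 kb, H3K27Ac signal was 51.9 and 47.8 without IL-4 and 68.2 and 60.8 with it (0.42 ± 0.10, adjusted p = 0.0358), and p300 scores were 44.00 and 94.18 against 172.96 and 180.30 (0.79 ± 0.22, adjusted p = 0.00923). The H3K27Ac call was lost without untreated replicate 1 (adjusted p = 0.0505), untreated replicate 2 (adjusted p = 0.109) or IL-4 replicate 1 (adjusted p = 0.107). The p300 call held without untreated replicate 1 (0.99, adjusted p = 0.000329) and was lost without IL-4 replicate 1 (adjusted p = 0.216) or IL-4 replicate 2 (adjusted p = 0.223). At the internal promoter of Il1rn, H3K27Ac signal was 63.8 and 61.9 against 82.4 and 63.2, which did not pass (adjusted p = 0.249). At Il1a −0.6 kb, H3K27Ac regions of 13.9 and 13.9 were called only after IL-4 (0.66 ± 0.11, adjusted p = 0.0128), a call lost without untreated replicate 1 (adjusted p = 0.158) or untreated replicate 2 (adjusted p = 0.151). In all, 4 of 9 H3K27Ac sites rose and none fell, where 43.4% of all sites changed and 20.7% rose.

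p300 was higher at 5 of 22 sites and lower at none, where 21% of all p300 sites changed and 13.6% were higher. Apart from the 3 sites above, Il1b −13.7 kb had no p300 peak in either untreated sample and scores of 25.62 and 24.86 after IL-4 (3.56 ± 0.85, adjusted p = 0.00228), and Il1b −18.9 kb had no peak in untreated replicate 1, 13.53 in untreated replicate 2, and 21.12 and 32.47 after IL-4 (1.95 ± 0.61, adjusted p = 0.0195). The Il1b −18.9 kb call was lost without untreated replicate 1, with a change of 1.04 (adjusted p = 0.0919), and without either IL-4 sample (adjusted p = 0.278 and 0.507). The Il1b −13.7 kb call held without any 1 library and was 4.32 without untreated replicate 1. No p300 call held without centring (0 of 22 sites). STAT letters were present in the windows of 3 of the 5 sites, and in 13.14% of all p300 windows. They were also present at Il1rn +8.4 kb and Il1b −37.5 kb, which had p300 peaks and no call. A link between these letters and the p300 change was not tested.

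The upstream site Il1b −9.3 kb had the highest H3K27Ac signal among the member sites and did not rise. The H3K27Ac signal there was 214.9 and 196.5 without IL-4 and 182.1 and 176.0 with it (−0.15 ± 0.06, adjusted p = 0.128). Il1b −2.4 kb gave 76.4 and 75.0 against 62.2 and 52.4 (−0.35 ± 0.11, adjusted p = 0.0695). Both pairs of groups do not overlap, with the lower values after IL-4, and neither change passed the test. p300 at Il1b −9.6 kb was 37.25 and 112.31 without and 98.27 and 112.08 with IL-4, a change of 0.03 ± 0.21.

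HDAC3 was higher at 1 of 11 sites (1.32% of all sites changed). No member or member site passed for the remaining antibodies by limma. For PU.1, 0 of 4 members and 0 of 25 sites passed, and 2 and 4 had an unadjusted p under 0.05 (0.262% of all genes changed). HDAC1 gave 0 of 4 members and 0 of 9 sites (0% of genes and 0% of sites), with 1 and 2 at an unadjusted p under 0.05. HDAC2 gave 0 of 4 and 0 of 10 (0.0669% of genes and 0.00404% of sites), with 1 and 0. RNAPII-pS5 gave 0 of 4 and 0 of 9 (0.445% and 1.36%), with 1 and 2. RNAPII-pS2 gave 0 of 3 and 0 of 4 (3.47% and 2.9%), with 1 and 1, and 1 of its libraries labelled IL-4 held no member peak at all. The deacetylases were found at sites that p300 also occupied: both untreated HDAC2 samples had peaks at Il1b +10.8, −2.3 and −9.3 kb, at Il1a −10.2 and −20.8 kb and at Il1rn +8.4 kb.

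**Figure D2:**
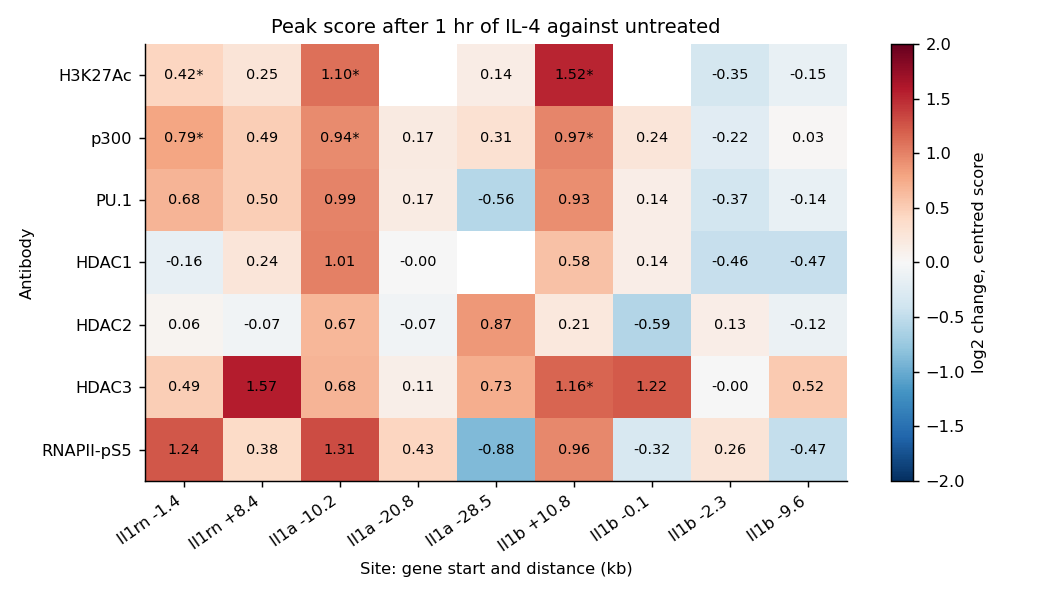
Log2 change of the centred score after 1 hr of IL-4 at 9 sites (columns, gene start and distance in kb) for 7 antibodies (rows); red is higher and blue lower after IL-4, white squares have no tested site, and asterisks mark an adjusted p of at most 0.05. The asterisks fall in the columns Il1b +10.8, Il1a −10.2 and Il1rn −1.4, and none falls at the Il1b promoter (−0.1) or at Il1b −2.3 or −9.6.

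LPS for 1 hr was followed by polymerase across Il1b and at the 3′ end of Il1rn, where there had been little or none. RNAPII-pS5 was higher for all 4 members in ctrl/LPS against ctrl/ctrl (26.9% of all genes changed): Il1a by 1.36 ± 0.26, Il1b by 1.65 ± 0.34, Gm14047 by 2.63 ± 0.35 and Il1rn by 2.42 ± 0.48, with adjusted p-values of 0.0111, 0.0143, 0.00419 and 0.0122. With intergenic peaks left out, Il1b gave −0.63, whereas scored over the gene span, whichever name a peak carried, it gave 4.89 ± 0.61 (adjusted p = 0.0039). Gm14047 remained past the threshold without any 1 library, and the other 3 were lost without ctrl/LPS replicate 2, with adjusted p-values between 0.0522 and 0.0631. Without ctrl/ctrl replicate 1, Il1a (adjusted p = 0.0534) and Il1b (0.0724) were lost; Il1b was also lost without ctrl/ctrl replicate 2 (0.0531), and Il1rn without ctrl/LPS replicate 1 (0.0525). RNAPII-pS2 was higher for 3 of 4 (30.1% of all genes): Il1a by 1.07 ± 0.12, Gm14047 by 0.97 ± 0.29 and Il1rn by 0.79 ± 0.21, whereas Il1b had a change of 0.25 ± 0.22. Scored over the gene span, Il1b gave 4.49 ± 0.36 (adjusted p = 0.00107) and Il1a −0.12 (adjusted p = 0.9). Gm14047, higher by name, fell over its span (−1.49 ± 0.22, adjusted p = 0.00447). Of the 3 calls by name, only Il1a stayed past the threshold without any 1 library. Of the sites, 9 of 14 changed for RNAPII-pS5 (8 higher, 1 lower, against 30.4% of all sites) and 15 of 23 for RNAPII-pS2 (12 higher, 3 lower, against 34.3%).

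Over Il1b, RNAPII-pS5 peaks named Gm14047 covered none of the gene in either ctrl/ctrl sample, where the only peaks (scores of 6.89 and 7.10) lay past its 3′ end. In ctrl/LPS, 91.0% and 88.9% of the gene was covered, and the highest scores of the site that runs through the gene were 36.51 and 37.93 (2.59 ± 0.29, adjusted p = 0.00195). In IL-4 PT/LPS, 85.5% and 82.0% was covered, with scores of 9.94 and 15.71. The 2 pretreated samples thus had peaks of nearly the same extent and of lower score, and the difference from ctrl/LPS passed the test (−1.76 ± 0.29, adjusted p = 0.0120), although not without ctrl/LPS replicate 1, ctrl/LPS replicate 2 or IL-4 PT/LPS replicate 1, with adjusted p-values between 0.0552 and 0.0626. The site had no peak in either IL-4 PT/ctrl sample. RNAPII-pS2 covered 75.7% and 81.1% of Il1b in ctrl/LPS and 79.1% and 81.6% in IL-4 PT/LPS. No RNAPII-pS2 peak covered Il1b in the 4 samples without LPS. At the merged site that runs from past the 3′ end into the gene, the highest RNAPII-pS2 scores were 8.55 and 4.15 in ctrl/ctrl, from peaks that lay past the 3′ end, 36.33 and 31.28 in ctrl/LPS and 26.47 and 22.89 in IL-4 PT/LPS (−0.40 ± 0.36 between the last 2 groups, adjusted p = 0.560).

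Il1a was covered far less by polymerase peaks than Il1b. RNAPII-pS5 peaks covered 0% and 3.2% of Il1a in ctrl/ctrl, 21.4% and 18.0% in ctrl/LPS and 29.5% and 26.3% in IL-4 PT/LPS. The scores in its body, at Il1a +1.7 kb, were 5.70 and 7.51 in ctrl/LPS and 6.43 and 7.81 in IL-4 PT/LPS, and no peak was called in the 4 samples without LPS (2.36 ± 0.28 for ctrl/LPS, adjusted p = 0.00233). IL-4 pretreatment made no difference past the test at this site (−0.08 ± 0.28, adjusted p = 0.883). RNAPII-pS2 covered 13.0% and 14.4% of Il1a in ctrl/LPS and 25.2% and 21.1% in IL-4 PT/LPS. The coverage of Il1a was thus higher in both pretreated samples for both forms of polymerase, and this was not tested.

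The strongest polymerase peak named Il1a was upstream of the gene, at Il1a −10.2 kb. RNAPII-pS5 scores there were 15.45 and 15.62 in ctrl/ctrl, 25.47 and 23.26 in IL-4 PT/ctrl, 33.23 and 49.82 in ctrl/LPS and 24.63 and 28.83 in IL-4 PT/LPS. LPS alone raised the score (1.57 ± 0.21, adjusted p = 0.00303), whereas the pretreated samples had nearly the same scores with and without LPS. The difference between the LPS responses passed the test (−1.43 ± 0.29, adjusted p = 0.0219), but was lost in 7 of the 8 fits that left out a library, with adjusted p-values between 0.0565 and 0.0855. RNAPII-pS2 scores followed the same order: 40.41 and 42.00, then 56.62 and 61.16, 107.82 and 93.87, and 79.21 and 73.12. The RNAPII-pS2 response to LPS (1.10 ± 0.10, adjusted p = 0.000765) was smaller after pretreatment (−0.91 ± 0.14, adjusted p = 0.00723), and both calls held without any 1 library. The direct comparison of IL-4 PT/LPS with ctrl/LPS did not pass for either form (adjusted p = 0.0567 for RNAPII-pS5 and 0.0636 for RNAPII-pS2).

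At Il1rn, polymerase changed differently in different parts of the gene. No peak was called at the 3′ end (Il1rn +14.8 kb) in the 4 samples without LPS, and RNAPII-pS5 scores were 32.53 and 35.55 in ctrl/LPS and 10.05 and 17.44 in IL-4 PT/LPS (4.74 ± 0.34 for LPS, adjusted p = 0.00153; −1.55 ± 0.34 for pretreatment, adjusted p = 0.0325). The pretreatment call was lost in 7 of the 8 fits that left out a library, with adjusted p-values between 0.0513 and 0.119. RNAPII-pS2 at the 3′ end was 38.10 and 30.80 in ctrl/LPS and 16.94 and 15.82 in IL-4 PT/LPS (−1.01 ± 0.27, adjusted p = 0.0548). Groups do not overlap for either form. At the internal promoter, in contrast, RNAPII-pS5 scores were 4.69 and 6.60 in ctrl/ctrl and 9.93 and 8.94 in IL-4 PT/ctrl, and no peak was called after LPS (−1.77 ± 0.31, adjusted p = 0.00786). With missing peaks set 4 times as high, this value was 0.082. RNAPII-pS2 there fell from 15.81 and 18.35 to 4.79 and 5.13 (−1.97 ± 0.35, adjusted p = 0.00627).

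The intron site Il1rn +4.8 kb responded to IL-4 pretreatment alone. RNAPII-pS2 scores were absent in ctrl/ctrl, 26.11 and 36.30 in IL-4 PT/ctrl, 22.46 and 17.95 in ctrl/LPS and 39.99 and 50.12 in IL-4 PT/LPS. Both treatments were followed by a peak (4.52 ± 0.24 for IL-4, adjusted p = 0.000831; 3.66 ± 0.24 for LPS, adjusted p = 0.000599), and the samples given both had the highest scores (1.21 ± 0.24 against ctrl/LPS, adjusted p = 0.0170). The last call was lost without either ctrl/LPS or either IL-4 PT/LPS sample, with adjusted p-values between 0.0575 and 0.126. The response to LPS was smaller where IL-4 had come first (−3.31 ± 0.34, adjusted p = 0.00565), which compares a rise from no peak with a rise from an existing one. Within the RNAPII-pS5 lists, 1 of 8 held a peak at this site (IL-4 PT/ctrl replicate 1, 4.91). After LPS, the pretreated samples thus had lower scores of both polymerase forms at the 3′ end of the antagonist gene. In this intron they had higher scores of RNAPII-pS2 only, and no RNAPII-pS5 peak was called there after LPS.

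Il1b +10.8 kb behaved as the opposite of the gene bodies. RNAPII-pS5 peaks were called in both IL-4 PT/ctrl samples (18.85 and 10.76) and in none of the other 6 (3.29 ± 0.34 against ctrl/ctrl, adjusted p = 0.00201). RNAPII-pS2 scores were 20.78 and 10.63 in ctrl/ctrl and 27.55 and 34.60 in IL-4 PT/ctrl, and no peak was called in the 4 samples given LPS (−3.61 ± 0.37 for LPS, adjusted p = 0.000963). p65 scores at the site were 8.99 and 8.20 in ctrl/ctrl, 9.61 and 14.65 in IL-4 PT/ctrl, absent and 11.99 in ctrl/LPS, and 13.90 and 16.30 in IL-4 PT/LPS. After LPS, polymerase was thus not called at a site where p65 was called in 3 of 4 samples given LPS. RNAPII-pS2 at Il1b −2.4 kb, in an intron of the noncoding gene, had the same pattern, with 31.92 and 21.74 in ctrl/ctrl, 51.72 and 59.86 in IL-4 PT/ctrl and no peak after LPS (−4.44 ± 0.28, adjusted p = 0.000569).

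**Figure D3:**
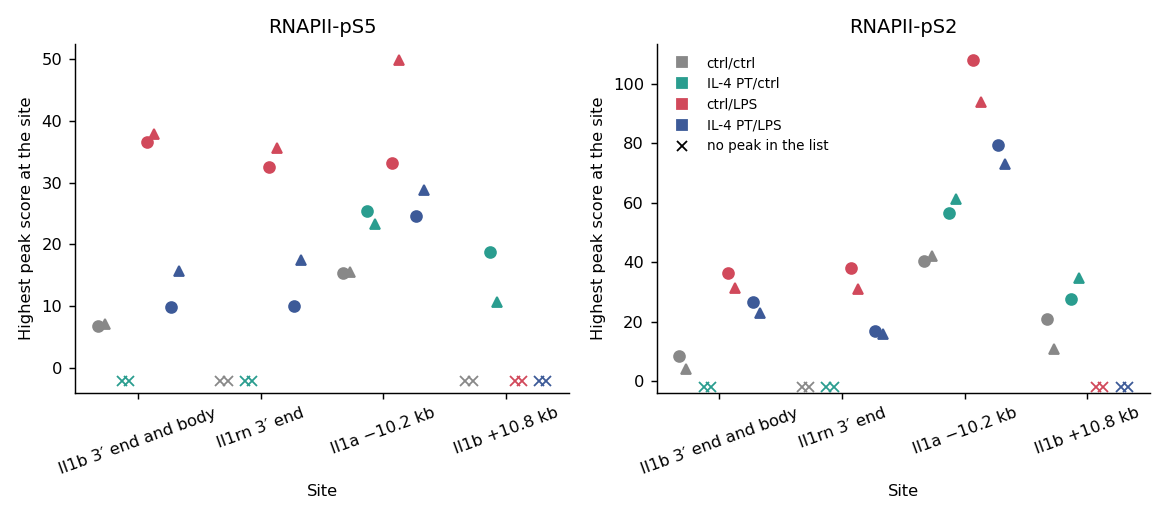
Highest peak score (−log10 type, linear axes) of RNAPII-pS5 (left) and RNAPII-pS2 (right) at 4 sites in the 4 groups of the LPS experiment, with circles for replicate 1, triangles for replicate 2 and crosses below 0 for lists without a peak. Scores at the site that runs into Il1b (where the ctrl/ctrl peaks lie past the 3′ end) and at the Il1rn 3′ end are highest in ctrl/LPS and lower in IL-4 PT/LPS, and Il1b +10.8 kb has peaks only in samples without LPS.

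By gene name, IL-4 pretreatment alone raised RNAPII-pS2 for all 4 members (Il1a by 0.59 ± 0.12, Il1b by 1.16 ± 0.22, Gm14047 by 1.13 ± 0.29 and Il1rn by 0.93 ± 0.21, adjusted p-values between 0.0147 and 0.0372, against 16.9% of all genes changed). None of the 4 stayed past the threshold without IL-4 PT/ctrl replicate 1 or without IL-4 PT/ctrl replicate 2. Scored over the gene span, Gm14047 and Il1rn passed, whereas Il1b gave 0.11 ± 0.36 (adjusted p = 0.896) and Il1a 0.86 ± 0.53 (adjusted p = 0.357). With intergenic peaks left out, the value of Gm14047 was −1.77 (adjusted p = 0.0469). RNAPII-pS5 gave 0 of 4 in this comparison by limma, with 1 at an unadjusted p under 0.05 (9.06% of all genes). The same ctrl/ctrl samples serve for the LPS and the IL-4 comparison. Of the RNAPII-pS2 sites, 9 of 23 changed (5 higher, 4 lower, against 22.6% of all sites), and the Il1rn intron, Il1b −2.4 kb and Il1a −10.2, −18.4 and −28.6 kb rose whereas Il1rn −1.4 kb, the site at the 3′ end of Il1b (whose peaks without LPS lay past the gene), Il1b −9.6 kb (11.73 and 9.79 to 3.37 and 4.25) and Il1a −20.8 kb (39.92 and 39.43 to 18.50 and 15.92) fell. The value at Il1rn −1.4 kb was 0.051 with missing peaks set 4 times as high. Of the RNAPII-pS5 sites, 2 of 14 changed (16.8% of all sites), which were Il1b +10.8 kb (higher) and the site that runs through Il1b (lower, but 0.058 where a peak had to cover 50% of the site). The ctrl/ctrl peaks of that site lay past the 3′ end, and the change over the gene span of Il1b was 0.87 ± 0.61 (adjusted p = 0.516).

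Between IL-4 PT/LPS and ctrl/LPS, RNAPII-pS5 passed for 1 of 4 members (12.6% of all genes), Gm14047, which fell (−1.80 ± 0.35, adjusted p = 0.0217). Its peaks in both groups lie over Il1b. Values for Il1a (−0.84 ± 0.26, adjusted p = 0.0852), Il1b (−0.90 ± 0.34, 0.142) and Il1rn (−1.59 ± 0.48, 0.0776) had the same sign and did not pass. Scored over the gene span, Il1rn passed (−1.67 ± 0.34, adjusted p = 0.028), as did the difference of its LPS responses (−2.40 ± 0.48, adjusted p = 0.0349). Over their spans, Il1b (−1.88 ± 0.61, adjusted p = 0.105), Gm14047 (−0.84, adjusted p = 0.604) and Il1a (0.48, adjusted p = 0.696) did not pass. Leaving out ctrl/LPS replicate 1, ctrl/LPS replicate 2 or IL-4 PT/LPS replicate 1 ended the Gm14047 call (adjusted p between 0.0788 and 0.0949). Of the sites, 2 of 14 changed, both lower (14.4% of all sites). RNAPII-pS2 passed for 0 of 4 members by limma (10.1% of all genes), with 1 at an unadjusted p under 0.05, and for 7 of 23 sites, 5 higher and 2 lower (17.7%). The 2 lower sites were Il1b −9.6 kb (36.40 and 25.29 to 14.46 and 9.45) and Il1rn −1.4 kb (18.29 and 15.53 to 7.86 and 6.97). Apart from the Il1rn intron, the higher sites had RNAPII-pS2 peaks only in IL-4 PT/LPS: Il1a −6.2 kb (5.18 and 11.53), Il1a −19.1 kb (5.28 and 8.43), Il1b −29.3 kb (7.47 and 4.51) and Il1b −60.3 kb (10.87 and 8.39). With either IL-4 PT/LPS sample left out, 0 of the sites passed, and 4 passed without ctrl/LPS replicate 1.

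The LPS response itself differed with pretreatment for 1 of 4 members by RNAPII-pS5 (Gm14047, 6.23% of all genes) and 1 of 4 by RNAPII-pS2 (Il1a, 6.35%), and for 2 of 14 RNAPII-pS5 sites (17.7%) and 7 of 23 RNAPII-pS2 sites (20.2%). With any 1 library left out, both the Gm14047 and the Il1a call were lost in all 8 fits, and both were lost with a replicate block. With intergenic peaks left out, the Gm14047 value turned to 0.39 and the Il1a call was lost (−0.43, adjusted p = 0.797). The Gm14047 value joins different places, as its IL-4 PT/ctrl scores came from Il1b +10.8 kb and its LPS scores from peaks over Il1b. Scored over the gene span, the RNAPII-pS5 response of Il1b did not pass (−2.75 ± 0.86, adjusted p = 0.115 by limma).

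p65 was found at many more sites after LPS. Both ctrl/ctrl samples had p65 peaks at 9 of 29 sites, both IL-4 PT/ctrl samples at 8, both ctrl/LPS samples at 18 and both IL-4 PT/LPS samples at 21. By gene name no member passed by limma in any comparison, against 34.9% of all genes for LPS (1 member at an unadjusted p under 0.05), 6.97% for IL-4 alone (0), 12.6% for pretreated against control LPS samples (1) and 7.2% for the difference of the LPS responses (0). Without centring, 3 of 4 members passed for LPS.

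Among 24 tested p65 sites, 15 were higher in ctrl/LPS than in ctrl/ctrl and 3 lower (46.9% of all sites changed). With missing peaks set 4 times as high, 4 of the 15 turned to lower: Il1a +3.8 kb (−0.58), Il1a −0.1 kb (−0.88), Il1a −30.4 kb (−1.04) and Il1b −18.9 kb (−0.75). The 3 lower sites, Il1b +10.2, −29.3 and −60.4 kb, had no peak in any of the 4 samples compared, so that their change is that of the centring alone. Several strong sites were absent without LPS: Il1b −39.4 kb had scores of 58.43 and 63.66 in ctrl/LPS (4.50 ± 0.20, adjusted p = 0.000385), Il1a −28.4 kb had 41.64 and 47.82 (4.05 ± 0.20, adjusted p = 0.000388) and Il1rn +22.7 kb had 30.92 and 20.70 (3.23 ± 0.28, adjusted p = 0.000909). The promoter of Il1b had p65 in all 8 samples, at 17.13 and 18.07 in ctrl/ctrl, 13.02 and 10.88 in IL-4 PT/ctrl, 79.73 and 83.93 in ctrl/LPS and 82.35 and 105.20 in IL-4 PT/LPS. It rose with LPS (1.17 ± 0.15, adjusted p = 0.00310) and did not differ past the test with pretreatment (−0.08 ± 0.15, adjusted p = 0.748). The count of 18 fell to between 11 and 14 with 1 library left out, and to 11 without ctrl/ctrl replicate 2, IL-4 PT/LPS replicate 1 or IL-4 PT/LPS replicate 2.

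IL-4 pretreatment before LPS was followed by changes in both directions within the locus. p65 was higher at 6 of 24 sites and lower at 3 (30.9% of all sites changed, 25.4% higher and 5.56% lower). The share of higher sites was that of all sites, and IL-4 PT/LPS lists were also longer (36738 and 38955 peaks against 26305 and 26820 in ctrl/LPS), whose part in the result was not tested. Without IL-4 PT/LPS replicate 1 or replicate 2, 1 of the sites passed. Around Il1a, scores at −6.2 kb were 17.75 and 12.86 in ctrl/LPS and 45.22 and 41.80 in IL-4 PT/LPS (1.26 ± 0.24, adjusted p = 0.0114), a call lost without IL-4 PT/LPS replicate 1 (adjusted p = 0.105) or replicate 2 (adjusted p = 0.0772). Scores at −1.8 kb were 2.95 and 6.65 in ctrl/ctrl, absent in IL-4 PT/ctrl, 24.61 and 20.62 in ctrl/LPS and 54.94 and 58.85 in IL-4 PT/LPS (1.07 ± 0.39, adjusted p = 0.100). The Il1a promoter had 4.27 and 6.56 in ctrl/LPS and 11.28 and 17.54 in IL-4 PT/LPS (1.14 ± 0.31, adjusted p = 0.0408), a call lost in 7 of the 8 fits that left out a library, with adjusted p-values between 0.0662 and 0.204. In all 3 cases the scores before centring were higher in both pretreated samples than in the ctrl/LPS samples. The share of all p65 sites with this order was not counted. The remaining sites called higher were nearest Il1b, at +10.2, −18.9, −29.3 and −60.4 kb. The call at −18.9 kb was lost in 6 of the 8 fits that left out a library. With missing peaks set 4 times as high, the values at +10.2 and −60.4 kb turned to −0.27.

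Il1b −9.6 kb was lower after pretreatment. Its central 300 bases held none of the 5 motifs, but this window was not centred on p65 summits. The study describes 2 p65 peaks at this enhancer, which it names −9.7 kb, and partial attenuation at 1 of them. The value here is the highest score of the merged site. Its p65 scores were 25.47 and 40.53 in ctrl/ctrl, 16.38 and 23.18 in IL-4 PT/ctrl, 127.14 and 112.64 in ctrl/LPS and 60.66 and 50.65 in IL-4 PT/LPS (−1.38 ± 0.30, adjusted p = 0.0192). The call was lost without any 1 of the 4 samples compared, with adjusted p-values between 0.0560 and 0.153. The remaining 2 lower sites, Il1a +3.8 kb (8.45 and 6.18) and Il1a −30.4 kb (3.64 and 4.45), had weak peaks only in ctrl/LPS. The internal promoter of Il1rn had scores of 37.74 and 25.97, 19.95 and 23.47, 112.85 and 103.48, and 77.29 and 83.45 in the same order of groups, and its difference after pretreatment did not pass (−0.70 ± 0.22, adjusted p = 0.0664). Il1a −10.3 kb had scores of 78.65 and 87.45 in ctrl/LPS and 120.02 and 122.37 in IL-4 PT/LPS, a change of 0.28 ± 0.29 after centring (adjusted p = 0.550). IL-4 alone changed 0 of 24 p65 sites by limma, with 3 at an unadjusted p under 0.05 (4.37% of all sites), and the LPS response differed with pretreatment at 6 of 24 (23.3%).

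**Figure D4:**
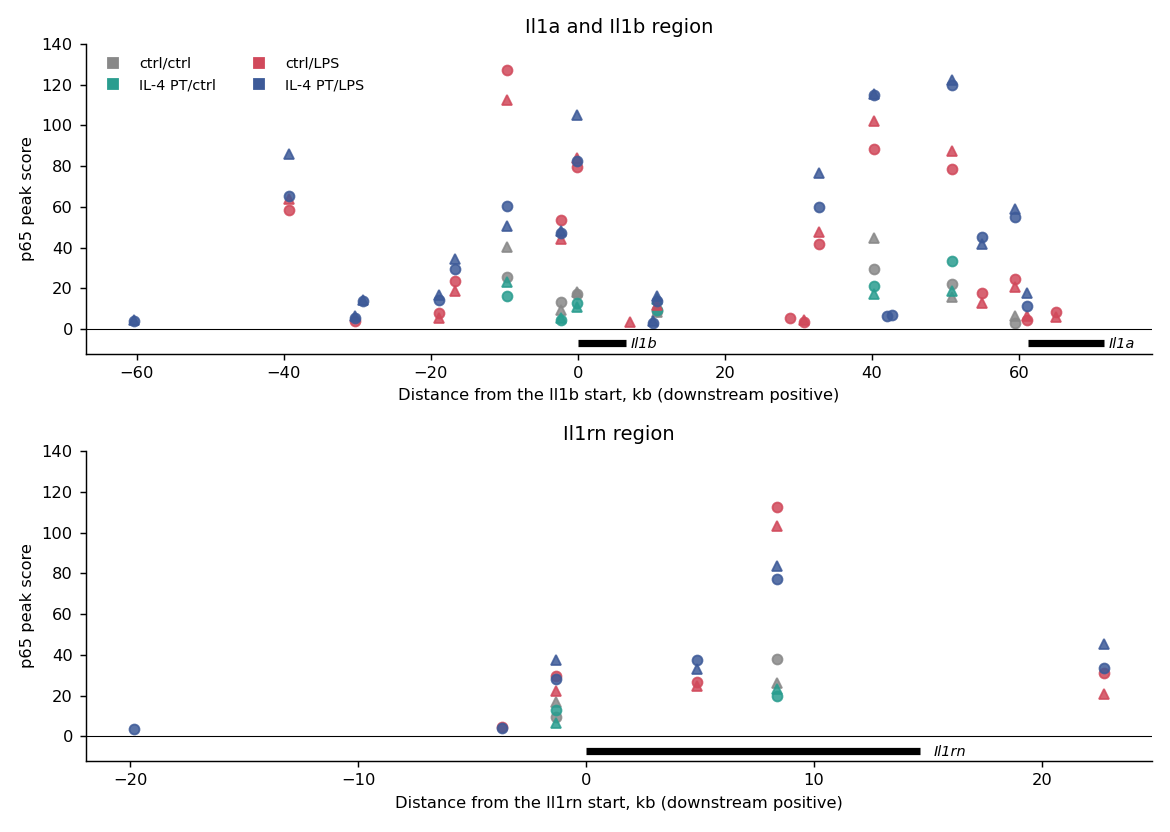
p65 peak score (−log10 type, linear axes) against distance from the Il1b start (upper) and the Il1rn start (lower), downstream positive, in the 4 groups of the LPS experiment, with circles for replicate 1, triangles for replicate 2 and black bars for the genes. Red points (ctrl/LPS) at Il1b −9.6 kb, 127.14 and 112.64, lie above the blue points (IL-4 PT/LPS), 60.66 and 50.65. Blue points lie above red ones from 6.2 kb upstream of Il1a to its promoter. They are also higher on average at other sites that did not pass, such as Il1a −10.3 and −28.4 kb and Il1rn +22.7 kb, and lower at the internal promoter of Il1rn. Scores are shown before centring, and the median p65 score was 1.24 times as high in IL-4 PT/LPS as in ctrl/LPS. Sites called higher in IL-4 PT/LPS also lay nearest Il1b, at +10.2, −18.9, −29.3 and −60.4 kb.

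The rest of the interleukin-1 pathway was described with a list of 32 genes. For RNAPII-pS5, 7 of 24 tested genes rose with LPS and 4 fell (9.11% and 17.8% of all genes), with a median change of 0.53 against −0.34 for all genes. For RNAPII-pS5, the genes with the 3 smallest adjusted p-values in each direction are named, whereas only examples are named for RNAPII-pS2 and p65. Il1rap, the accessory chain of the receptor, had no RNAPII-pS5 peak in ctrl/ctrl and scores of 10.53 and 6.92 in ctrl/LPS (2.78 ± 0.40, adjusted p = 0.00484). Il33, another ligand of the family, went from 10.28 and 8.82 to 19.35 and 23.55 (adjusted p = 0.00488), and the caspase gene Casp4 from 6.50 and 8.41 to 15.07 and 15.67 (adjusted p = 0.0139). Gsdmd, which encodes the pore protein through which IL-1β leaves the cell, fell from 27.38 and 23.01 to 10.09 and 8.31 (−1.24 ± 0.21, adjusted p = 0.00790), followed by Tab1 and Il18r1. For RNAPII-pS2, 7 of 26 rose and 3 fell (13.9% and 16.2% of all genes), with Il1r1, the signalling receptor, rising from 16.30 and 22.46 to 61.97 and 50.73 (1.34 ± 0.22, adjusted p = 0.00484). For p65, 7 of 25 rose and 3 fell (19.4% and 15.5% of all genes), of which Sigirr had no peak in the compared samples and changed through centring alone. p65 at Il1rap was absent without LPS and scored 14.09 and 17.70 in ctrl/LPS and 39.96 and 39.61 in IL-4 PT/LPS.

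Between pretreated and control LPS samples, 2 of 24 genes of the pathway differed for RNAPII-pS5, 3 of 26 for RNAPII-pS2 and 3 of 25 for p65, where 12.6%, 10.1% and 12.6% of all genes did. RNAPII-pS5 was higher for 1 of 24, the kinase gene Irak2 (11.00 and 14.00 in ctrl/LPS, 36.19 and 31.89 in IL-4 PT/LPS, 1.23 ± 0.22, adjusted p = 0.0177), and lower for 1, the kinase gene Map3k7 (47.00 and 45.86 to 19.58 and 19.45, −1.48 ± 0.30, adjusted p = 0.0245). RNAPII-pS2 was higher for 1 of 26, the IL-33 receptor gene Il1rl1 (22.13 and 22.26 to 41.86 and 35.55, adjusted p = 0.0489), and lower for 2, the adaptor gene Traf6 (60.68 and 46.66 to 23.98 and 18.66, adjusted p = 0.0341) and the gene of the IL-1β-processing protease Casp1 (17.75 and 18.12 to 9.61 and 7.73, adjusted p = 0.0375). p65 was higher for 1 of 25 (Sigirr, from no peak to 6.83 and 4.66) and lower for 2, Irak4 and Irak3. Irak3, which restrains the pathway, had p65 scores of 84.72 and 102.07 in ctrl/LPS and 52.10 and 42.48 in IL-4 PT/LPS (−1.29 ± 0.23, adjusted p = 0.0166).

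After 1 hr of IL-4, H3K27Ac was higher at 5 of 24 genes (16.6% of all genes), of which Il1rl1, Il1rl2 and Il18rap, all receptor genes, had the smallest p-values. Il1rl2 went from 43.0 and 44.1 to 80.8 and 74.6 (0.83 ± 0.09, adjusted p = 0.00382). H3K27Ac was lower at 7 (21.7% of all genes), led by Irak3 (353.9 and 347.1 to 197.0 and 202.4, −0.82 ± 0.04, adjusted p = 0.000523), Tab2 and Irak2. The median H3K27Ac change of the list was −0.06, against −0.01 for all genes. p300 rose at 3 of 27 (Il1rap, Tab3 and Il18rap) and fell at 1 (Gsdmd), where 10.2% of all genes rose and 8.68% fell. Il1rap scores were 15.59 and 60.31 without and 177.13 and 169.62 with IL-4 (1.72 ± 0.18, adjusted p = 3.33e-05). These p300 calls include untreated replicate 1 and were not examined without it. Between 20 and 29 genes of the list were tested for each of the remaining antibodies, and none passed for RNAPII-pS5, PU.1, HDAC1, HDAC2 or HDAC3.

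The genes whose highest RNAPII and p65 scores varied most like those of the members were found over the 24 samples of the LPS experiment. Pearson correlation was taken among 10105 genes on centred log2 scores, after the mean of each gene within each antibody was subtracted. Chrna9 (r = 0.87), Eml2 (0.84) and Kif20b (0.82) were most like Il1a, and Cxcl2 (0.77), Cd14 (0.76) and 2210010C04Rik (0.74) most like Il1b. Stim2 (0.80), Mtpn (0.79) and Bach1 (0.78) were most like Il1rn, and Zfp36 (0.79), Papss1 (0.77) and 4930428G15Rik (0.75) most like Gm14047. Among the members, Il1a and Il1rn were the most alike (0.75), followed by Il1b and Il1rn (0.71) and by Il1a and Il1b (0.57). By gene name, Il1rn, on another part of the chromosome, thus had a closer profile to Il1a and to Il1b than those names had to each other. This is a description with no test, and these profiles are not those of the gene bodies. RNAPII-pS5 peaks over Il1b carried the name Gm14047, and the strongest polymerase peak named Il1a lay upstream of the gene. Gm14047 had r = 0.52 with Il1rn, 0.455 with Il1a and 0.30 with Il1b.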

How the data were processed

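Peak lists of 56 mouse BMDM samples (28 groups of 2, 9 antibodies) were analysed. The authors aligned reads to mm10 and called peaks per sample, without pooling replicates, and the submitters' processing notes name BWA 0.7.10, SAMtools 0.1.19, HOMER 4.2 and MACS2 2.0.10. The deposited score of 52 lists is a −log10 value of the q-value type, which grows with depth. The deposited score of the 4 H3K27Ac lists is HOMER's normalized tag signal over regions of 1001 bp. The lists hold no read counts, so depth and counting error are unknown. The lists hold different numbers of peaks, and a list with more peaks has more chances to hold a weak one.

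Members were all peaks with the gene name Il1a, Il1b, Il1rn or Gm14047. The members, the gene lists and the tests were chosen with earlier results of these data known. For each gene name and for each site (peaks of 1 antibody and experiment merged where they overlapped by at least 1 base), the highest score per sample was taken to log2 and centred, with no pseudocount. Missing peaks were set to the lowest score of the antibody. Features with a peak in at least 2 samples of a fit entered limma 3.58.1 (R 4.3.3) with a variance trend and no block, over all 8 samples of an antibody in the LPS experiment and over 4 in the 1 hr experiment, and calls were made at a Benjamini-Hochberg adjusted p of at most 0.05. Scripts were tested on simulated data. The alternatives were other scalings, missing values, filters, peak thresholds, overlaps, a replicate block and 1 library left out at a time. An alternative that drops calls without a peak in the compared samples was added after the data were seen.

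The sites with a peak in at least 2 samples were named by distance, and the 3 genes most like each member were named. Every gene of the pathway list was counted. Those with the 3 smallest adjusted p per direction were named for RNAPII-pS5 with LPS and for H3K27Ac. Only examples were named for RNAPII-pS2 and p65 with LPS. Motifs were searched with Python 3.11.15 in 300-base windows and in the 250 bases before each start. No per-sample column of an unlisted sample was used.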

Additional observations from a re-analysis of the deposited data

Results flagged for a closer look

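The results below are those in which the LPS response differed between IL-4-pretreated and control cells by the interaction term of the limma fit (2 samples per group, adjusted over all genes or sites). By gene name, the RNAPII-pS5 response of Gm14047, whose peaks after LPS lie over Il1b, was lower by −2.81 on the log2 scale (adjusted p = 0.0337), and the RNAPII-pS2 response of Il1a by −1.03 (adjusted p = 0.0248). Both calls were lost in all 8 fits that left out a library and with a replicate block. With intergenic peaks left out, the Gm14047 value turned to 0.39 and the Il1a value was −0.43 (adjusted p = 0.797). The Gm14047 value joins different places. Its IL-4 PT/ctrl scores came from Il1b +10.8 kb, and its ctrl/ctrl peaks lay past the 3′ end of Il1b. Scored over the gene span, the RNAPII-pS5 interaction did not pass for Il1b (−2.75 ± 0.86, adjusted p = 0.115) or Gm14047 (−2.38, adjusted p = 0.296) by limma.

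Among sites, RNAPII-pS5 responses differed at Il1a −10.1 kb (−1.43, adjusted p = 0.0219) and Il1b +10.8 kb (−3.48, adjusted p = 0.00827). The call at Il1a −10.1 kb was lost in 7 of the 8 fits that left out a library. At Il1b +10.8 kb, RNAPII-pS5 peaks were called only in IL-4 PT/ctrl samples, so that the value rests on the score given to a missing peak. RNAPII-pS2 responses were smaller at Il1rn +4.8 kb (−3.31), Il1a −10.2 kb (−0.91) and Il1a −18.4 kb (−2.88). They were larger at Il1a −6.2 kb (2.48), Il1a −19.1 kb (2.27), Il1b −29.3 kb (2.07) and Il1b −60.3 kb (2.79), where peaks were called only in IL-4 PT/LPS samples. Il1a −18.4 kb had a peak only in IL-4 PT/ctrl samples (10.85 and 9.75).

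p65 responses were larger at Il1a −1.8 kb (2.63, adjusted p = 0.0216), Il1b +10.2 kb (0.95), Il1b −29.3 kb (2.97) and Il1b −60.4 kb (1.28), and smaller at Il1a +3.8 kb (−2.93) and Il1a −30.4 kb (−2.08). The call at Il1a −1.8 kb was lost in 6 of the 8 fits that left out a library (changes of 2.08 to 3.24 over the 8). Apart from Il1a −1.8 kb, each of these p65 sites had peaks in 1 group only, so that the value rests on the score given to a missing peak.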

How the results depend on the processing

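Counts below are of the 4 members or of their sites called at an adjusted p of at most 0.05. With an unadjusted p, 1 hr members were 1 (RNAPII-pS5, RNAPII-pS2, HDAC1, HDAC2) or 2 (H3K27Ac, PU.1), and sites 1 (RNAPII-pS2), 2 (RNAPII-pS5, HDAC1), 3 (HDAC3) or 4 (PU.1). In the LPS experiment they were 1, 4 and 3 members for RNAPII-pS5 (IL-4 alone, pretreated against control LPS, interaction), 5 sites for the second of these, 1 and 3 members for RNAPII-pS2 (the last 2), and 1 and 1 for p65 (LPS, pretreated against control LPS).

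Without centring, p300 and HDAC3 gave 0 members and 0 sites and p65 3 members for LPS. Quantile normalization gave 2 members for H3K27Ac, p300 and p65 (LPS), 2 HDAC3 sites and 1 RNAPII-pS2 member (LPS), and the p65 value at Il1b +10.2 kb, pretreated against control LPS, became −0.028. The sum of scores gave 3 H3K27Ac members, 2 RNAPII-pS2 members (IL-4 alone) and 1 p65 member (LPS).

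With missing peaks set 4 times as high, counts were 1 RNAPII-pS5 site (1 hr), 2 PU.1 members and 2 sites, 3 and 0 RNAPII-pS5 members and 6 sites (pretreated against control LPS, interaction, and the first again), 2 RNAPII-pS2 members (interaction) and 1 and 1 p65 members (LPS, pretreated against control LPS). Values that then changed sign were 0.082 (RNAPII-pS5, Il1rn +8.4 kb, LPS), 0.051 (RNAPII-pS2, Il1rn −1.4 kb, IL-4 alone) and, for p65 with LPS, −0.58 (Il1a +3.8 kb), −0.88 (Il1a −0.1 kb), −1.04 (Il1a −30.4 kb) and −0.75 (Il1b −18.9 kb). p65 at Il1b +10.2 and −60.4 kb gave −0.27 for pretreated against control LPS and −0.46 for the interaction. Dropping peaks with scores under 5 (and the weaker 50% of H3K27Ac regions) gave 1 H3K27Ac site, 2 PU.1 members and 2 sites, 2 RNAPII-pS5 members (pretreated against control LPS), 2 RNAPII-pS2 members (interaction) and 3 p65 members (LPS), with changes of sign to 0.045 at Il1rn −1.4 kb (RNAPII-pS2, IL-4 alone) and, for p65 with LPS, to −0.41 at Il1a +3.8 kb, −0.75 at Il1a −0.1 kb and −0.59 at Il1b −18.9 kb.

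With features required to have a peak in every sample, members were 2 (H3K27Ac, PU.1, p65 LPS) or 3 (RNAPII-pS5 pretreated against control LPS and interaction, RNAPII-pS2 interaction), and sites 3 (p300), 2 (PU.1, RNAPII-pS5 LPS), 4 (RNAPII-pS2 LPS), 5 (p65 LPS) and 1 (each antibody for pretreated against control LPS), with fewer sites tested. With a peak in at least 1 sample, sites were 2 (p300) and 1 (PU.1). Where a peak had to cover 50% of a site, 0 HDAC3 sites and 1 RNAPII-pS5 site (pretreated against control LPS) passed, and RNAPII-pS5 over Il1b with IL-4 alone gave 0.058.

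With intergenic peaks left out, 0 members passed for p300, HDAC3 and the RNAPII-pS2 interaction, 2 for RNAPII-pS5 with LPS and for pretreated against control LPS, 1 for RNAPII-pS5 with IL-4 alone, and 2 for RNAPII-pS2 with IL-4 alone and p65 with LPS. Signs then changed for RNAPII-pS5 Il1b with LPS (−0.63), the Gm14047 interaction (0.39), RNAPII-pS2 Il1a with LPS (−0.092) and Gm14047 with IL-4 alone (−1.77). By gene span, 0 members passed for p300, HDAC3 and the RNAPII-pS2 interaction, 2 for RNAPII-pS2 with IL-4 alone and 3 for p65 with LPS. Signs then changed for Gm14047 with H3K27Ac (−0.46), p300 (−0.36), HDAC3 (−0.025) and RNAPII-pS2 with LPS (−1.49) and for RNAPII-pS2 Il1a with LPS (−0.12). Of these, the Gm14047 values for H3K27Ac (adjusted p = 0.0444) and RNAPII-pS2 (adjusted p = 0.00447) passed as lower by limma.

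The replicate block gave 2 PU.1 members, 0 HDAC3 sites, 0 members for both interactions and 1 RNAPII-pS5 site (pretreated against control LPS). Replicates of a number shared only that number (26 correlations of deviations between groups, from −0.0261 to 0.0737).

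Leaving out 1 library gave, in the 1 hr experiment, 0 to 1 RNAPII-pS5 sites, 1 to 2 members and 2 to 3 sites for H3K27Ac, 0 to 2 and 1 to 7 for p300, 0 to 2 and 0 to 2 for PU.1, and 0 to 1 and 0 to 2 for HDAC3. RNAPII-pS5 gave 1 to 4 members with LPS, 1 to 3 sites with IL-4 alone, 0 to 2 members and 0 to 2 sites for pretreated against control LPS, and 0 to 0 members and 0 to 2 sites for the interaction. RNAPII-pS2 gave 1 to 2 members with LPS, 0 to 3 members and 4 to 9 sites with IL-4 alone, 0 to 7 sites for pretreated against control LPS, and 0 to 1 members and 3 to 6 sites for the interaction. p65 gave 0 to 1 members and 11 to 14 sites with LPS, 0 to 1 sites with IL-4 alone, 0 to 1 members and 1 to 9 sites for pretreated against control LPS, and 0 to 5 sites for the interaction. Of the values of single genes and sites, 222 of these refits lost the call, 552 kept it and 0 changed sign. Apart from the fits with fewer samples or features, the cause was not tested. With 2 samples per group, the spread is poorly known, and the lists give no depth.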
